A study of Mus musculus with 15 samples.

Results

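Splenic CD8+ dendritic cells (DCs) were set against splenic CD4+ DCs to describe which pathways and gene families separate the DC lineages of the spleen. Of the 15 murine libraries analysed here, 6 make up this comparison (3 of each subtype). The genes described are those with more than 1 CPM (counts scaled to a common library total) in at least 3 of the 6 libraries, which held for 12670 of the 38924 Ensembl genes counted. Every library came from naïve, female C57BL/6 mice that were 6 to 8 weeks old, untreated and with no engineered allele named in the labels. A library held cells of 5 mice pooled together, so that the pool is the replicate and the spread between single mice was not measured. Spleens were digested with collagenase D, CD11c+ cells were enriched on beads, and the DCs were sorted as CD11c+ MHC II+ cells carrying either CD8 or CD4 together with CD11b. The CD8+ cells are the splenic DC1 and the CD4+ cells a splenic DC2. The other 9 libraries (splenic Ly6C+ monocytes, and CD103+ DCs and CD11b+ DCs of the lymph nodes, LNs, that drain the lung, 3 of each) were fitted in the same model, and the LN DCs are used in the last comparison.

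Conventional DCs form a pair of lineages with separate precursors. DC1 develop under the transcription factors IRF8 and BATF3, take up dead cells and present the antigens in them on MHC class I to CD8 T cells, and sense nucleic acids and parasite proteins in endosomes. Splenic CD4+ DC2 develop under IRF4, RELB and Notch2 signals, sit in the bridging channels at the edge of the white pulp, where blood-borne particles arrive, and prime CD4 T cells through MHC class II.

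The labels were checked against the genes of the sort gates, which are given as a check and not as results. Cd8a, the alpha chain of CD8, had 348, 339 and 618 CPM in the CD8+ libraries and 2.68, 2.52 and 0.825 CPM in the CD4+ libraries. Cd4 had 17.9, 3.06 and 1.92 CPM in the CD8+ libraries and 146, 91.7 and 193 CPM in the CD4+ libraries. Itgam, the CD11b chain, had 8.74, 12.8 and 3.28 CPM in the CD8+ libraries and 257, 422 and 348 CPM in the CD4+ libraries. Every CD8+ library was therefore above every CD4+ library for Cd8a and below for Cd4 and Itgam, and the highest Cd4 value among the CD8+ libraries was that of replicate 1. Gene counts summed to 5492796 to 8311777 in these 6 libraries, between 15292 and 16438 genes had a read, and mitochondrial genes took 1.32% to 1.72% of the counts in CD8+ DCs and 1.03% to 1.398% in CD4+ DCs. Among the markers of other cells, those of neutrophils, platelets, NK cells and basophils or mast cells summed to at most 3.896 CPM in any of the 6 libraries, and those of T cells to 4.65 to 28.6 CPM. Erythroid markers summed to 28.3 to 144 CPM in CD8+ DCs and 35.1 to 236 CPM in CD4+ DCs. Markers of stroma and endothelium summed to 65.7 to 112 CPM and 91.7 to 99.1 CPM, and those of plasma cells to 1.58 to 20.8 CPM and 3.86 to 27.4 CPM. No tested marker of the erythroid, stromal or plasma cell sets was called. B cell markers summed to 330.5 to 379.7 CPM in CD8+ DCs and 347 to 466 CPM in CD4+ DCs, most of it from Ighm, and of the 7 tested 2 were called lower in CD8+ DCs, Cr2 with 0.945, 0 and 0.226 CPM against 2.42, 14.8 and 7.75 CPM and Cd79b with 19.7, 9.04 and 4.41 CPM against 52.9, 69.8 and 54.4 CPM, CD8+ libraries first, while the defining Pax5 had no read. The call of Cd79b was lost without CD8+ replicate 2 or 3 or CD4+ replicate 2 (adjusted p up to 0.0969). Monocyte markers summed to 472 to 559.7 CPM and 345 to 601 CPM, against a mean of 9931 CPM in the splenic monocytes. Of 12 markers of splenic macrophages, 10 were lower in CD8+ DCs, with sums of 337 to 442 CPM against 1282 to 1781 CPM in CD4+ DCs, and markers of plasmacytoid DCs summed to 180 to 295 CPM against 137 to 153 CPM. Of the 8 plasmacytoid DC markers tested, Siglech, Bst2, Ccr9 and Pacsin1 (4.25, 2.39 and 11.6 CPM against 0.765, 0.168 and 0.165 CPM) were called higher and Spib and Smim5 lower, and Tcf4, with the highest level among them, was not called. Since whole pools of cells were measured, fewer cells of a type and less RNA per cell cannot be told apart in any value that follows.

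The lineages differed at 3943 of the 12670 genes tested (31.1%) at an adjusted p under 0.05, here referred to as called. Of these, 1884 (14.9%) were higher and 2059 (16.3%) lower in CD8+ DCs, and the median log2 fold change of all genes tested, CD8+ minus CD4+ throughout, was 0.015. The counts in the gene lists below are to be read against these shares. In 3662 of the called genes every library of one subtype lay above every library of the other. A difference of at least 8-fold was fitted to 204 of the genes called higher and 253 of those called lower. Values are CPM with library sizes scaled by the TMM method, given for replicates 1, 2 and 3, or as means ± SD (n = 3) with CD8+ DCs before CD4+ DCs, and fitted log2 fold changes are given ± their standard error with adjusted p from the quasi-likelihood test. Whenever 1 library was left out in turn, no called gene changed its sign, and between 2665 (without CD8+ replicate 3) and 3924 genes were called. A gene read in one subtype alone falls below the CPM filter when a library of that subtype is left out.

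**Figure D1:**
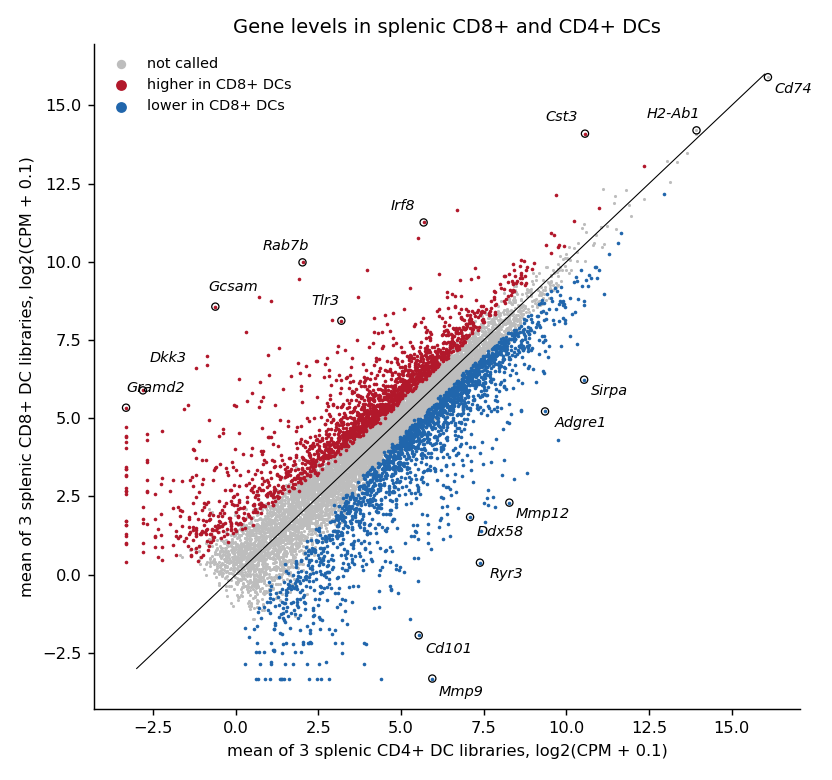
Mean level of each of the 12670 genes tested in the 3 splenic CD4+ DC libraries (x axis) and the 3 splenic CD8+ DC libraries (y axis), both as log2(CPM + 0.1); each point is a gene, red where called higher in CD8+ DCs, blue where called lower and grey where not called, and the line marks equal levels. Genes seen in only one subtype, such as Gramd2 and Mmp9, lie along the edges, and Cd74 and H2-Ab1 lie near the line at the top right.

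Several genes with the largest fitted differences were read in one lineage only. Gramd2, which encodes a protein with a lipid-binding GRAM domain (ENSMUSG00000074259, chr9:59680144-59718874 of mm10), had 38.1, 41.9 and 41.04 CPM in the CD8+ libraries and 0, 0 and 0 CPM in the CD4+ libraries. The absence of any read in the CD4+ libraries makes it at least 267-fold higher in CD8+ DCs, computed against 3 counts over the group. Clec4b2, a gene of the Dectin-2 cluster of C-type lectins (chr6:123172893-123204671), had 20.4, 32.6 and 25.7 CPM in the CD8+ libraries and 0, 0 and 0 CPM in the CD4+ libraries, at least 174-fold higher. Clnk, an adaptor related to SLP-76 (chr5:38706462-38876812), had 16.5, 21 and 25.8 CPM in the CD8+ libraries and 0, 0 and 0 CPM in the CD4+ libraries and was at least 139.7-fold higher. In each of these genes all 3 CD8+ libraries were well above 0 and all 3 CD4+ libraries were at 0. The Notch ligand Jag2 (at least 110.2-fold), Gpr33, a receptor of the chemoattractant family (at least 124-fold), Mab21l3 (at least 142-fold), Trabd2b, which encodes a protease that cuts Wnt proteins (at least 71.1-fold), and Synpo, an actin-associated protein (at least 68.6-fold), were also without a read in CD4+ DCs. Gm11837 was too, but 40.5% of its exon bases overlap Necab1, and the counting ignored strand. Dkk3, a secreted protein of the Dickkopf family, had 41.8, 45.7 and 90.3 CPM in the CD8+ libraries and 0.128, 0 and 0 CPM in the CD4+ libraries. Its single read in CD4+ DCs leaves a ratio of 1177 with a 95% counting interval of 211 to 46500. Gm3336 likewise had 1 read in CD4+ DCs against 22.4 CPM. Gcsam, a regulator of signalling and movement first known from germinal centre B cells (chr16:45610380-45622867), had 337, 469 and 332 CPM in the CD8+ libraries and 1.15, 0.504 and 0 CPM in the CD4+ libraries, a 689-fold difference in means.

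On the CD4+ side the leading genes included metalloproteinases and ion channels. Mmp9, a secreted gelatinase (chr2:164940780-164955850), had 0, 0 and 0 CPM in the CD8+ libraries and 23.5, 80.8 and 80.3 CPM in the CD4+ libraries. It was thus at least 509-fold lower in CD8+ DCs, and its level in CD4+ replicate 1 was below that of the other CD4+ libraries. The macrophage elastase gene Mmp12 (chr9:7344381-7369499) had 7.32, 2.66 and 4.52 CPM in the CD8+ libraries and 240.1, 395 and 295 CPM in the CD4+ libraries (log2 fold change -5.99 ± 0.68, adjusted p = 2.6e-06), and the membrane-bound Mmp14 had 0, 0 and 0.339 CPM in the CD8+ libraries and 11.7, 15.6 and 18.6 CPM in the CD4+ libraries (a ratio of 127 with a 95% counting interval of 43.4 to 616). Ryr3, a calcium release channel of the endoplasmic reticulum (chr2:112631355-113217096), had 2.83, 0.665 and 0.113 CPM in the CD8+ libraries and 163, 229 and 109 CPM in the CD4+ libraries, a 139-fold difference. Cnga3, a channel gated by cyclic nucleotides, had no read in CD8+ DCs and 7.65, 30.2 and 24.6 CPM in the CD4+ libraries. Cd101, an inhibitory surface protein (chr3:100993530-101029556), had 0.236, 0.133 and 0.113 CPM in the CD8+ libraries and 44.6, 60.3 and 33.8 CPM in the CD4+ libraries, a 288-fold difference. The groups did not overlap for any of these genes, which was a condition for naming them here and not a result. Cdhr3, a cadherin-related protein, Slc44a5, a choline transporter-like protein, Dmrtb1, a transcription factor of the DMRT family, the SIRP family member Sirpb1c and Sucnr1, the receptor for succinate, complete the list, with means of 0.0394 against 14.5 CPM for Cdhr3, 0.272 against 38.7 CPM for Slc44a5, 0.118 against 14.6 CPM for Dmrtb1, 3.09 against 187 CPM for Sirpb1c and 0.763 against 45.5 CPM for Sucnr1, CD8+ DCs first. Gm20412 stood among them as well, at 2.504 against 172 CPM, and all of its exon bases lie within exons of Tgm2.

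**Figure D2:**
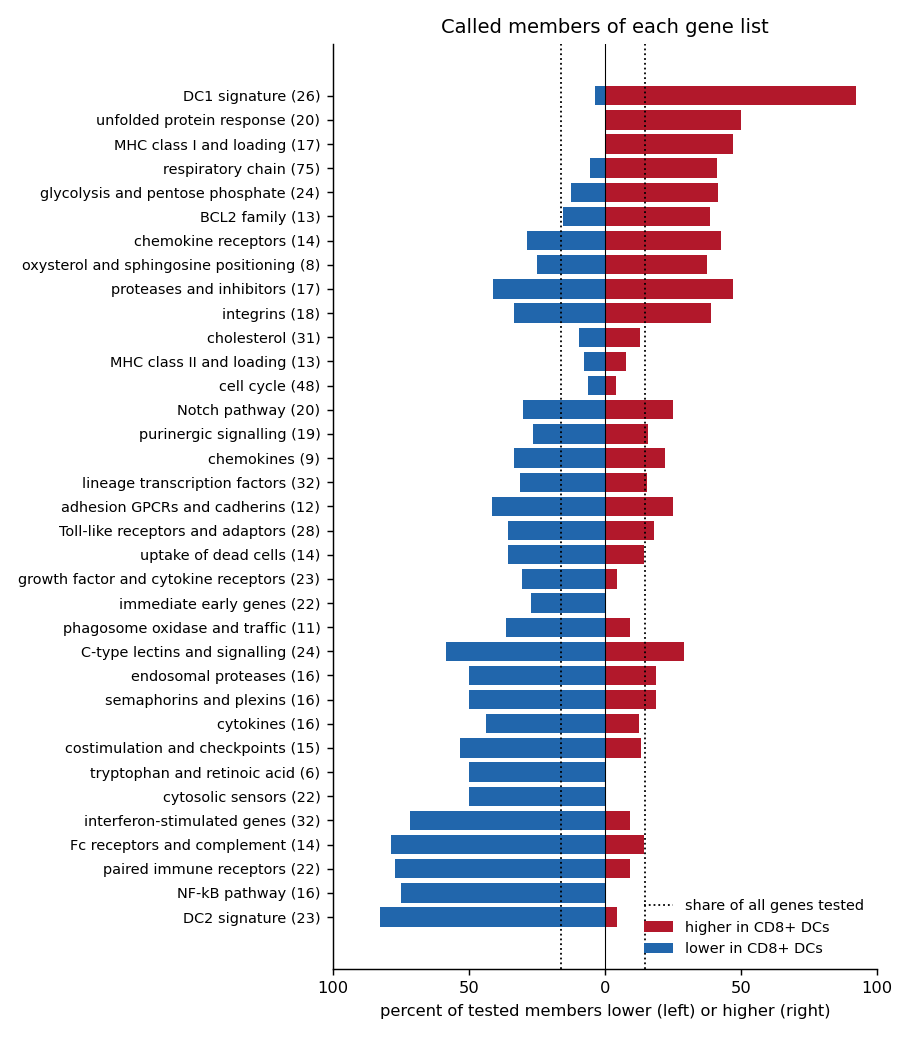
Share of the tested members of each gene list that were called higher (red, to the right) or lower (blue, to the left) in splenic CD8+ DCs, in percent, with the number of tested members in brackets; dotted lines mark the shares over all 12670 genes tested, 14.9% and 16.3%. The DC1 signature, folding and MHC class I lists extend to the right, and the NF-kB, paired receptor, Fc receptor and complement, and interferon-stimulated lists extend to the left.

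Transcription factors of both lineages separated the subtypes. Of 8 tested factors known from DC1, 4 were higher in CD8+ DCs and none was lower, and of 10 known from DC2, 7 were lower and none was higher, against 14.9% higher and 16.3% lower over all genes. Irf8 had 1939, 2350 and 3069 CPM in the CD8+ libraries and 67.7, 45 and 41.1 CPM in the CD4+ libraries (log2 fold change 5.58 ± 0.31, adjusted p = 8.05e-10), and Batf3 had 93.6, 87.6 and 96.5 CPM in the CD8+ libraries and 50.8, 35.3 and 43.5 CPM in the CD4+ libraries (log2 fold change 1.098 ± 0.18, adjusted p = 0.000161). Id2, an inhibitor of E proteins that DC1 need, had 804, 818 and 926 CPM in the CD8+ libraries and 455, 360.2 and 202 CPM in the CD4+ libraries (log2 fold change 1.32 ± 0.26, adjusted p = 0.000692). Mycl, a MYC paralogue used by DC1, had 442, 500.4 and 496 CPM in the CD8+ libraries and 129.6, 93.2 and 74.5 CPM in the CD4+ libraries (log2 fold change 2.27 ± 0.34, adjusted p = 5.08e-05). All CD8+ libraries were above all CD4+ libraries in these 4 genes. Relb, an NF-kB subunit, had 162, 167 and 149.7 CPM in the CD8+ libraries and 640.5, 1265 and 863 CPM in the CD4+ libraries (log2 fold change -2.53 ± 0.23, adjusted p = 1.95e-07), and Zeb2, a repressor of the DC1 fate, had 62.8, 34.3 and 16.6 CPM in the CD8+ libraries and 239.8, 303 and 169 CPM in the CD4+ libraries (log2 fold change -2.65 ± 0.34, adjusted p = 1.07e-05). Again no library of one subtype reached the range of the other. Tbx21, which encodes T-bet and marks a subset of splenic DC2, had 3.42, 0.798 and 2.04 CPM in the CD8+ libraries and 46.4, 110.3 and 73.5 CPM in the CD4+ libraries (log2 fold change -5.17 ± 0.46, adjusted p = 1.45e-07), and Prdm1, which encodes BLIMP-1, had 0.479 ± 0.0834 against 9.21 ± 0.907 CPM. Irf4 itself had 21.01, 10.2 and 7.12 CPM in the CD8+ libraries and 34.95, 35.4 and 59.9 CPM in the CD4+ libraries (log2 fold change -1.76 ± 0.36, adjusted p = 0.00109). Maf, a factor also known from macrophages, was lower too, with 2.18 ± 0.282 against 7.02 ± 2.06 CPM. Of the factors that all DCs share, Spi1, which encodes PU.1, had 214 ± 33.5 against 216 ± 44.1 CPM and Etv6 had 181 ± 26.9 against 176 ± 45.05 CPM, and neither was called. Nfil3 was called higher and Klf4 and Runx3 lower, but each call was lost without any 1 of several libraries and in the fit of the 6 splenic DC libraries alone. Nfil3 lost it without CD8+ replicate 1 or 3 or CD4+ replicate 3 (adjusted p up to 0.117), Klf4 without CD8+ replicate 2 or 3 or CD4+ replicate 1 (up to 0.101), and Runx3 without CD8+ replicate 2 or 3 or CD4+ replicate 1 or 3 (up to 0.105).

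The lists of known DC1 and DC2 signature genes hold genes chosen in part on splenic DCs, so that their direction is not independent evidence. Of 26 DC1 signature genes, 24 were higher in CD8+ DCs and 1 lower, and of 23 DC2 signature genes, 19 were lower, the gate gene Itgam among them, and 1 higher. Clec9a, a receptor for exposed actin of dead cells, had 284 ± 19.8 against 7.37 ± 1.36 CPM, the adhesion protein Cadm1 571 ± 134 against 38.9 ± 14.8 CPM and Xcr1, the receptor for the chemokine XCL1, 706 ± 199 against 3.66 ± 2.45 CPM. Rab7b, a small GTPase of late endosomes, had 864, 1152 and 1024 CPM in the CD8+ libraries and 3.83, 5.71 and 2.31 CPM in the CD4+ libraries, a 257-fold difference. Ppt1, a lysosomal thioesterase, had 3264 ± 1085 against 104 ± 17.1 CPM, a 31.5-fold difference, and Naaa, a lysosomal hydrolase of acylethanolamides, had 1722 ± 558 against 45.9 ± 2.64 CPM, a 37.5-fold difference. Itgae, the integrin chain CD103, was nearly confined to the CD8+ libraries, with 70.95, 112 and 133 CPM in the CD8+ libraries and 0, 1.34 and 0 CPM in the CD4+ libraries. Cd207, the lectin langerin, had 39.4 ± 5.699 against 0.237 ± 0.207 CPM. The exception in the list was Itgb5, at 8.91 ± 4.08 against 21 ± 2.39 CPM (log2 fold change -1.24 ± 0.29, adjusted p = 0.00283), which was lower in CD8+ DCs. Havcr2, which encodes TIM-3, had 807 ± 82.8 against 511 ± 176 CPM and was not called (adjusted p = 0.0642), although it was with the replicate number as a block (adjusted p = 0.00647) and without CD4+ replicate 2 (adjusted p = 0.0358). On the DC2 side, Sirpa, the CD47 receptor, had 117, 63.5 and 44.8 CPM in the CD8+ libraries and 963, 1860 and 1641 CPM in the CD4+ libraries, a 19.8-fold difference. The lectins Clec4a1, Clec4a3 and Clec4a4 (DCIR2) stood at 5.48 ± 3.38 against 222 ± 94.4 CPM, 6.41 ± 3.09 against 199 ± 36.4 CPM and 4.56 ± 4.09 against 198 ± 39.02 CPM, and Esam, an adhesion protein that marks Notch2-dependent splenic DC2, at 7.91 ± 1.21 against 97.1 ± 30.4 CPM. Clec12a, an inhibitory lectin that senses uric acid crystals, went the other way, with 114, 122 and 132 CPM in the CD8+ libraries and 32.3, 31.7 and 20.1 CPM in the CD4+ libraries (log2 fold change 2.12 ± 0.203, adjusted p = 3.43e-07), while Notch2, at 65.5 ± 12.96 against 67.5 ± 12.02 CPM, was not called.

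MHC class I peptide loading and MHC class II genes behaved differently. In the MHC class I list, 8 of 17 genes were called higher and none lower (median log2 fold change 0.63), and in the MHC class II list 1 of 13 was called higher and 1 lower (median -0.17). Tap1, a subunit of the peptide transporter, had 519.9, 542 and 912 CPM in the CD8+ libraries and 285, 209 and 402 CPM in the CD4+ libraries (log2 fold change 1.14 ± 0.25, adjusted p = 0.00176). The chaperones of the loading complex rose with it. Pdia3, the oxidoreductase ERp57, had 591, 539 and 1087 CPM in the CD8+ libraries and 175, 65.3 and 238 CPM in the CD4+ libraries (log2 fold change 2.21 ± 0.36, adjusted p = 0.000124), Calr, calreticulin, 268 ± 41.9 against 80.4 ± 21.1 CPM and Canx, calnexin, 331 ± 50.3 against 173 ± 58.4 CPM. The immunoproteasome subunit Psmb9 was at 344 ± 92.9 against 129 ± 43.8 CPM and the proteasome activator subunit Psme1 at 638 ± 68.4 against 357 ± 90.4 CPM. Without at least 1 library, 2 of the 8 genes lost the call. The heavy chains H2-K1 and H2-D1 and the light chain B2m were not called, with 1529 ± 283 against 2247 ± 617 CPM for H2-K1, 5965 ± 481 against 9055 ± 2668 CPM for H2-D1 and 2836 ± 287 against 3961 ± 1158 CPM for B2m. With the replicate number as a block the heavy chains were called lower in CD8+ DCs, with adjusted p = 0.031 for H2-K1 and 0.0424 for H2-D1, and so they were without CD4+ replicate 1, with adjusted p = 0.0438 and 0.00913, while B2m was without CD4+ replicate 3 (adjusted p = 0.0381). DESeq2 called both heavy chains lower as well. A correction for exon length, chosen after seeing the data, called H2-K1, H2-D1 and B2m lower (adjusted p = 0.0441, 0.0384 and 0.0412). Reads of the heavy chains could also be lost to near-identical class I genes, since only uniquely mapped reads were counted.

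For MHC class II, the invariant chain Cd74 (61360 ± 10860 against 70280 ± 28130 CPM), H2-Aa (9328 ± 649 against 10490 ± 2440 CPM) and H2-Ab1 (18880 ± 1888 against 15710 ± 4497 CPM) were not called, nor was the transactivator Ciita (746 ± 2.997 against 867 ± 70.1 CPM). The gene called higher was H2-DMb1, a chain of the peptide editor (362 ± 149.9 against 124 ± 75.3 CPM), which lost the call without CD8+ replicate 3 (adjusted p = 0.0717) or CD4+ replicate 2 (adjusted p = 0.0514). With the block, 3 genes of the list were called higher and 3 lower. Without the block, the gene called lower was H2-Eb2. A beta chain gene of the E locus, it had 7.44, 7.31 and 6.11 CPM in the CD8+ libraries and 90.8, 92.9 and 70.9 CPM in the CD4+ libraries (log2 fold change -3.61 ± 0.31, adjusted p = 9.17e-08), and its groups were far from overlapping. Of 13 proteases that trim antigens in endosomes, 7 were lower in CD8+ DCs and 1 higher, all of them cathepsins. Ctsd had 69.9 ± 20.6 against 408 ± 101 CPM, Ctsc 84.3 ± 15 against 311 ± 55.4 CPM, Ctss, which cuts the invariant chain, 717 ± 152 against 1967 ± 536 CPM and Ctsh 600.0 ± 142 against 1413 ± 253 CPM, and the one higher was Ctse, at 8.62 ± 1.37 against 2.47 ± 1.51 CPM. Of 3 protease inhibitors, 2 were higher and 1 lower. Cst3, cystatin C, had 15390, 18930 and 18340 CPM in the CD8+ libraries and 1225, 1788 and 1531 CPM in the CD4+ libraries (log2 fold change 3.53 ± 0.23, adjusted p = 3.67e-09), an 11.6-fold difference, while Cst7, cystatin F, had 1.18 ± 0.156 against 10.5 ± 2.22 CPM, lower. Cstb, cystatin B, was called higher (25.6 ± 9.42 against 11.2 ± 6.64 CPM), but not without CD8+ replicate 3 or CD4+ replicate 2 (adjusted p up to 0.0888). Of 7 genes of the phagocyte oxidase, 4 were lower in CD8+ DCs and none was higher. Cybb, its catalytic subunit, had 104 ± 50.97 against 349.6 ± 32.4 CPM and Cyba 404 ± 52.2 against 968 ± 338 CPM, whereas Ncf1, at 93.7 ± 29.7 against 81.2 ± 33.3 CPM, was not called. Rab39, a small GTPase of the endosomal and phagosomal pathway, was higher (61.01 ± 13.6 against 27.3 ± 6.62 CPM).

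Genes for protein folding in the endoplasmic reticulum (ER) formed a group in which all called members were higher in CD8+ DCs. These chaperones and disulfide isomerases fold secreted and surface proteins, and their genes are classic targets of the unfolded protein response, which is set off by the sensors IRE1, PERK and ATF6. Of 14 chaperone and ER degradation genes, 10 were higher and none lower (median log2 fold change 1.16), and of 6 sensors and response factors none was called. The chaperone BiP, encoded by Hspa5, had 1382, 1615 and 1485 CPM in the CD8+ libraries and 616, 762 and 635 CPM in the CD4+ libraries (log2 fold change 1.15 ± 0.19, adjusted p = 0.000158). Hsp90b1, encoding the chaperone GRP94 that folds Toll-like receptors and integrins, had 486, 404 and 555 CPM in the CD8+ libraries and 124, 92.3 and 119.7 CPM in the CD4+ libraries (log2 fold change 2.101 ± 0.203, adjusted p = 3.73e-07), a 4.29-fold difference. Every CD8+ library was above every CD4+ library in both genes. The isomerases Pdia4 and Pdia6 had 155 ± 39.5 against 47.4 ± 12.7 CPM and 376 ± 54.8 against 98.1 ± 30.3 CPM. Creld2 (173 ± 39.5 against 38.6 ± 15.6 CPM), Manf (66.02 ± 29.7 against 13.6 ± 6.76 CPM), Sdf2l1 (90.5 ± 33.2 against 20.1 ± 11.6 CPM) and the co-chaperone Dnajc3 (205 ± 13.98 against 91.2 ± 19.5 CPM) also rose. Dnajb9 was called higher, but not without CD8+ replicate 1 or 3 or CD4+ replicate 2 or 3 (adjusted p up to 0.115), nor was Herpud1 without CD8+ replicate 1 or 2 or CD4+ replicate 2 or 3 (up to 0.104). The sensor gene Ern1, which encodes IRE1, had 27.1 ± 5.71 against 23.6 ± 4.04 CPM (adjusted p = 0.556), the response factor Xbp1 201 ± 4.73 against 183 ± 34.2 CPM (adjusted p = 0.631) and Ddit3, the death-associated factor CHOP, 7.39 ± 0.523 against 10.8 ± 1.11 CPM (adjusted p = 0.177), and none of them was called under any alternative run here.

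Many ER chaperone genes carry an ER stress element before their start, to which the response factors bind together with NF-Y. The 250 bases before the start of each gene in RefSeq (build GRCm38.p6, the build of the counts) were searched on both strands for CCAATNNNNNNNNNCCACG. It was found in 0.113% of the 32851 promoters in that table, and in 0.164% of the 9138 tested genes matched by symbol. Among genes called higher the share was 0.499% (7 of 1403), among those called lower 0.0663% (1 of 1508) and among those not called 0.112% (7 of 6227). The 7 called higher are all members of the folding and MHC class I lists, so that this share is not separate from the list counts. Of the folding list, 18 of 20 genes had an entry and 6 held the element, 5 of the 9 called higher and 1 of the 9 not called. From the MHC class I list 14 of 17 had an entry and 2 held it, both called higher. The matches are shown in the direction of the gene with the element in capitals (reversed where it reads CGTGG first) to let the members that carry it be compared. They describe the letters present and do not show that a factor binds.
Hspa5: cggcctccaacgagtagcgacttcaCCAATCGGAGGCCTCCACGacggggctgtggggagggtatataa
Hsp90b1: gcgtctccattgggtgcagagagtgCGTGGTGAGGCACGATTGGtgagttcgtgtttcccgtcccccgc
Pdia6: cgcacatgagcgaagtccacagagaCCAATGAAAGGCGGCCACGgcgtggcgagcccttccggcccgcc
Creld2: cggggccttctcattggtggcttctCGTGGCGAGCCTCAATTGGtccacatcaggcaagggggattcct
Dnajc3: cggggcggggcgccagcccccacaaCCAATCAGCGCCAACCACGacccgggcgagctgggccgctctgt
Calr: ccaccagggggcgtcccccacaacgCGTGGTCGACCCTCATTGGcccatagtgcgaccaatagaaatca
Canx: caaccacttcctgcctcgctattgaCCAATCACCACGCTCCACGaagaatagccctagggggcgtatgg
Syvn1: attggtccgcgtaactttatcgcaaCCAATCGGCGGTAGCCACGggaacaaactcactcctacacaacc
They lie at chr2:34772000-34772068 (+) (Hspa5), chr10:86705508-86705576 (-) (Hsp90b1), chr12:17266466-17266534 (+) (Pdia6), chr15:88819495-88819563 (+) (Creld2), chr14:118937802-118937870 (+) (Dnajc3), chr8:84847050-84847118 (-) (Calr), chr11:50325775-50325843 (-) (Canx) and chr19:6046507-6046575 (+) (Syvn1). The first 7 genes were higher in CD8+ DCs, and Syvn1, a ligase of ER degradation that carries the element 25 bases before its start, had 41.8 ± 9.15 against 37.9 ± 11.5 CPM and was not called.

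**Figure D3:**
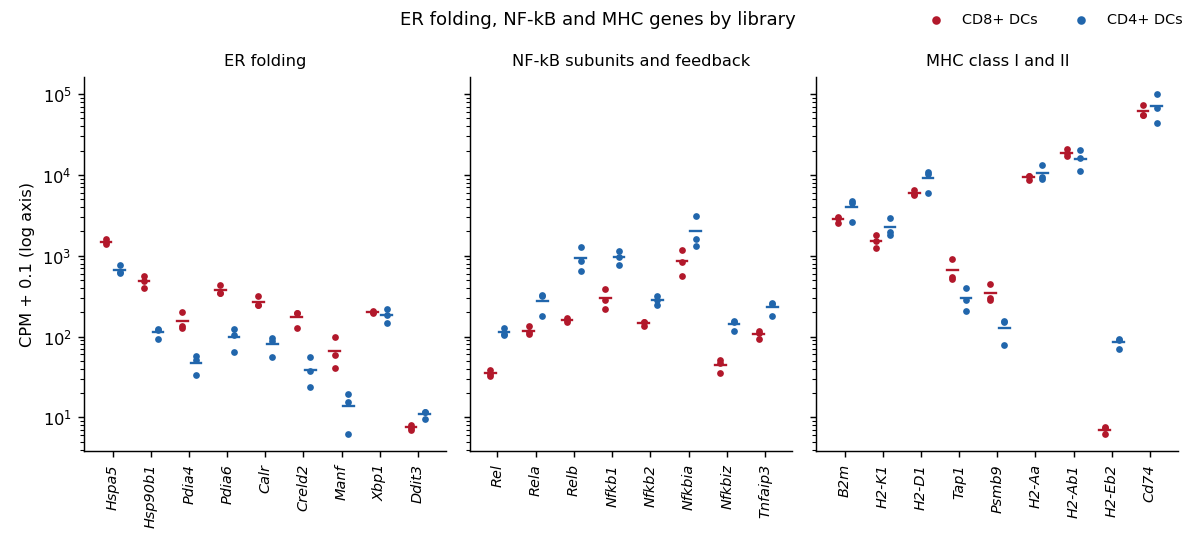
Level of each gene in each splenic DC library as CPM + 0.1 on a log axis, red for the 3 CD8+ and blue for the 3 CD4+ libraries, with a bar at the mean. The ER folding genes from Hspa5 to Manf are higher in CD8+ DCs, the NF-kB genes are lower, and most MHC chains overlap or lie close, with H2-Eb2 the exception.

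Receptors for microbial products divided by family. Of 28 Toll-like receptor genes and adaptors, 5 were higher in CD8+ DCs, close to the 14.9% over all genes, and 10 were lower. Of 22 cytosolic sensors and inflammasome genes none was higher and 11 were lower, against 16.3% lower over all genes. Tlr3, the endosomal receptor for double-stranded RNA, had 206, 268 and 359 CPM in the CD8+ libraries and 10.8, 6.88 and 9.399 CPM in the CD4+ libraries (log2 fold change 4.93 ± 0.49, adjusted p = 5.64e-07), and Tlr11 and Tlr12, the receptors for the parasite protein profilin, had 356 ± 85.5 against 34.1 ± 10.3 CPM and 102 ± 27.7 against 4.22 ± 2.63 CPM. All CD8+ libraries exceeded all CD4+ libraries for the 3 receptors. In the opposite direction, Tlr7, the endosomal receptor for single-stranded RNA, had 5.55, 2.53 and 1.696 CPM in the CD8+ libraries and 68.8, 62.5 and 85.2 CPM in the CD4+ libraries (log2 fold change -4.46 ± 0.33, adjusted p = 1.78e-08), and Tlr1, the partner of TLR2 for lipopeptides, had 21.4, 13.96 and 8.71 CPM in the CD8+ libraries and 144, 195 and 160.4 CPM in the CD4+ libraries (log2 fold change -3.501 ± 0.28, adjusted p = 4.94e-08). The adaptor Ticam2 had 11.3 ± 3.03 against 117 ± 36.1 CPM. Tlr9, the receptor for unmethylated DNA, was low in both (2.88 ± 1.52 against 4.26 ± 1.695 CPM) and not called, and neither were Tlr13 (70.97 ± 17.7 against 56.5 ± 21.7 CPM), Tlr4 (8.64 ± 4.28 against 6.26 ± 2.95 CPM) or Unc93b1, the chaperone of endosomal receptors (1547 ± 319 against 1813 ± 399 CPM). Tirap, an adaptor of the cell-surface receptors, was higher at 27.9 ± 2.497 against 12.1 ± 1.87 CPM.

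The cytosolic sensors of RNA were lower in CD8+ DCs. Ddx58, which encodes the sensor RIG-I, had 4.49, 2.13 and 3.84 CPM in the CD8+ libraries and 97.6, 140.5 and 169.7 CPM in the CD4+ libraries (log2 fold change -5.27 ± 0.33, adjusted p = 2.47e-09), a 38.98-fold difference in means. Ifih1, which encodes MDA5, had 24.1, 18.6 and 21.1 CPM in the CD8+ libraries and 57.5, 57.3 and 82.5 CPM in the CD4+ libraries (log2 fold change -1.63 ± 0.198, adjusted p = 6.05e-06). In the pathway that senses cytosolic DNA, Tmem173, which encodes STING, had 71.3 ± 22.7 against 261 ± 78.2 CPM (log2 fold change -1.87 ± 0.25, adjusted p = 1.92e-05) and Cgas, the enzyme upstream of it, had 31.7 ± 5.92 against 30.8 ± 8.11 CPM and was not called. Of the sensors of bacterial cell walls, Nod1 was at 40.5, 46 and 57.6 CPM in the CD8+ libraries and 188, 256 and 237 CPM in the CD4+ libraries (log2 fold change -2.24 ± 0.23, adjusted p = 6.96e-07), its kinase Ripk2 at 19.6 ± 2.03 against 83.1 ± 25.3 CPM and Nod2 at 8.65 ± 2.87 against 9.15 ± 0.219 CPM, not called. The inflammasome protease Casp1 had 34.7 ± 3.56 against 129.6 ± 25.4 CPM, Casp4 5.09 ± 1.62 against 16.1 ± 3.43 CPM, Nlrc4, which senses flagellin through NAIP proteins, 4.24 ± 2.103 against 21.01 ± 11.5 CPM and their product gene Il1b 61.1 ± 15.1 against 288 ± 110.1 CPM, all lower, whereas the adaptor Pycard had 56.5 ± 6.3 against 44.6 ± 4.01 CPM and was not called. Without at least 1 library, 2 of the 11 lost the call, and in the fits that left out a library 1 gene was called higher, Mavs, without CD4+ replicate 1 (adjusted p = 0.0416).

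**Figure D4:**
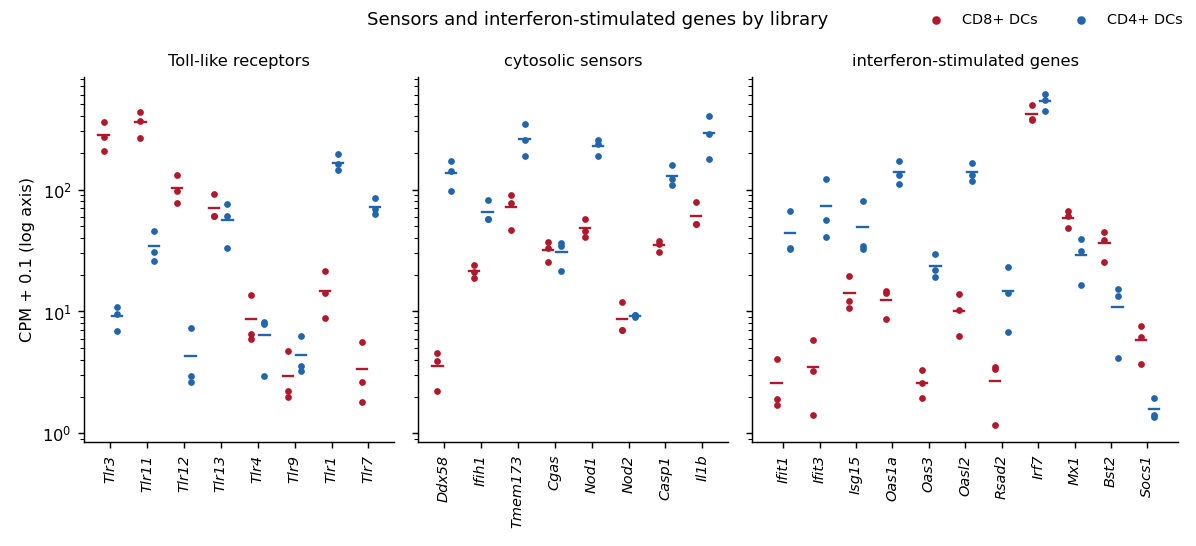
Level of each gene in each splenic DC library as CPM + 0.1 on a log axis, red for the 3 CD8+ and blue for the 3 CD4+ libraries, with a bar at the mean. Tlr3, Tlr11 and Tlr12 are higher in CD8+ DCs, the RNA sensors and most interferon-stimulated genes are lower, and the groups overlap in Irf7.

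Interferon-stimulated genes were mostly lower in CD8+ DCs, with 23 of 32 lower and 3 higher (median log2 fold change -1.35). They encode proteins that block viral replication or loosen the vacuoles of parasites, and in resting mice they are held at a basal level by constant low interferon. Ifit1, which binds foreign RNA caps, had 4.01, 1.59 and 1.81 CPM in the CD8+ libraries and 32.9, 32.7 and 66.6 CPM in the CD4+ libraries (log2 fold change -4.14 ± 0.41, adjusted p = 4.79e-07), and Ifit3 had 5.79, 1.33 and 3.17 CPM in the CD8+ libraries and 56.6, 40.97 and 122 CPM in the CD4+ libraries (log2 fold change -4.398 ± 0.47, adjusted p = 1.29e-06). The oligoadenylate synthetase Oas1a had 14.8, 13.96 and 8.59 CPM in the CD8+ libraries and 131, 171 and 111 CPM in the CD4+ libraries (log2 fold change -3.47 ± 0.27, adjusted p = 3.64e-08). None of the groups overlapped in these genes. Oasl2 (10.1 ± 3.74 against 139 ± 24.98 CPM), Oas3 (2.51 ± 0.664 against 23.4 ± 5.505 CPM), Oas2 (0.684 ± 0.863 against 25.1 ± 15.2 CPM), Rtp4 (2.26 ± 1.94 against 41.9 ± 19.2 CPM) and the guanylate-binding protein Gbp7 (1.25 ± 0.492 against 17.4 ± 8.58 CPM) fell as well. By class, 15 of 22 genes of the type I set and 8 of 10 of the type II set were lower. Among the latter, the immunity-related GTPases Irgm1, Irgm2 and Igtp had 141 ± 34.9 against 289 ± 79.6 CPM, 47.96 ± 12.3 against 146 ± 36.2 CPM and 43.3 ± 17.9 against 97.1 ± 16.3 CPM. Not all moved together. Bst2, which encodes tetherin and also stands among the plasmacytoid DC markers, had 45.1, 25.5 and 38.5 CPM in the CD8+ libraries and 15.3, 4.03 and 13.2 CPM in the CD4+ libraries (log2 fold change 1.73 ± 0.34, adjusted p = 0.000737), Mx1 58.4 ± 9.27 against 29.1 ± 11.6 CPM and Socs1, an inhibitor of cytokine signalling, 5.69 ± 1.96 against 1.48 ± 0.318 CPM, and these 3 were higher. The factor Irf7 (415 ± 71.7 against 531 ± 85.8 CPM, adjusted p = 0.257) was not called, and the receptor chains Ifnar1 (171 ± 17.2 against 211 ± 61.1 CPM) and Ifngr2 (91.5 ± 15.6 against 94.4 ± 8.55 CPM) were not either. Without at least 1 library, 4 of the 23 genes lost the call.

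The element bound by interferon-activated factors, GAAANNGAAA on either strand, was searched in the same 250 bases. It stood in 2.98% of all promoters in the table, in 5.90% of the tested genes called lower, in 3.71% of those called higher and in 2.91% of those not called. Only 22 of the 32 listed genes had an entry, so that counts are given and no share for the list. Of the 22, 15 held the element: 13 of the 17 called lower, 2 of the 2 called higher and 0 of the 3 not called. Some of those with the element are shown to set genes lower in CD8+ DCs beside the genes that were higher, with the element in capitals (reversed where it begins with TTTC).
Ifit1: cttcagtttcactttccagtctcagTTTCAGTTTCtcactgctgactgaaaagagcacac
Ifit3: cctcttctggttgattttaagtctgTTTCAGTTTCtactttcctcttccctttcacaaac
Isg15: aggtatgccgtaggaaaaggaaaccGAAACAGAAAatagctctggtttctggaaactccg
Oas1a: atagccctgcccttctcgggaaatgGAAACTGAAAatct
Irgm1: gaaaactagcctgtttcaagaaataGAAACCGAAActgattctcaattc
Bst2: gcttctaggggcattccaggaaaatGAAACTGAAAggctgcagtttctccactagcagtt
Socs1: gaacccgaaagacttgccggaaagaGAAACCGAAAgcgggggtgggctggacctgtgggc
These are chr19:34640779-34640838 (+) (Ifit1), chr19:34583382-34583441 (+) (Ifit3), chr4:156200850-156200909 (-) (Isg15), chr5:120907526-120907564 (-) (Oas1a), chr11:48871421-48871469 (-) (Irgm1), chr8:71537562-71537621 (-) (Bst2) and chr16:10785579-10785638 (-) (Socs1). The first 5 genes were lower and the last 2 higher in CD8+ DCs.

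The NF-kB pathway was lower in CD8+ DCs, with 12 of 16 genes called lower and none higher (median log2 fold change -0.99). It turns on inflammatory and survival genes, and its feedback inhibitors are its own targets. All 5 subunit genes fell. Rel, encoding c-Rel, had 38.4, 34.7 and 32.7 CPM in the CD8+ libraries and 106, 128 and 106 CPM in the CD4+ libraries (log2 fold change -1.68 ± 0.21, adjusted p = 6.89e-06), and Nfkb1, encoding the precursor of p50, had 386, 281 and 221 CPM in the CD8+ libraries and 769, 969 and 1155 CPM in the CD4+ libraries (log2 fold change -1.704 ± 0.22, adjusted p = 1.42e-05). Rela and Nfkb2 had 118 ± 15.03 against 274 ± 83.6 CPM and 146 ± 8.18 against 281 ± 35.7 CPM. Every CD8+ library was below every CD4+ library in each of the 5. Among inhibitors and feedback genes, Nfkbia, which encodes IkB alpha, had 854 ± 304 against 2012 ± 942 CPM, Nfkbiz 44.1 ± 7.84 against 141 ± 21 CPM and the deubiquitinase Tnfaip3 107 ± 12.1 against 230.2 ± 46.2 CPM. Nfkbib, a second inhibitor, had 75.96 ± 12.4 against 70.6 ± 22.5 CPM and was not called. Immediate early genes, which are switched on within minutes of stimulation, were called lower in 6 of 22 cases and higher in none. Over all genes 16.3% were lower and 14.9% higher. Zfp36, which destabilizes cytokine mRNA, had 434 ± 45.7 against 1483 ± 458 CPM, Dusp1 771 ± 213 against 1658 ± 488 CPM and Fosl2 6.13 ± 1.505 against 27.6 ± 8.97 CPM, but Fos (426 ± 153 against 495 ± 205 CPM), Junb (350.3 ± 39.5 against 324 ± 107 CPM) and Atf3 (40.2 ± 22.7 against 54.4 ± 36.4 CPM) were not called. Of the 6 genes called, 3 lost the call without at least 1 library, and with the replicate block 1 gene was called higher.

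Paired immune receptors, families of activating and inhibitory receptors that share ligands, were lower in CD8+ DCs in 17 of 22 cases and higher in 2 (median log2 fold change -2.03). The SIRP family led, with Sirpb1a at 17.8, 8.11 and 2.04 CPM in the CD8+ libraries and 458, 513 and 371 CPM in the CD4+ libraries and Sirpb1b at 9.45, 3.59 and 1.36 CPM in the CD8+ libraries and 195, 218 and 137 CPM in the CD4+ libraries. These genes resemble each other closely, and reads that map to several of them were not counted. In the CD300 family, whose members bind lipids, Cd300ld had 4.29 ± 3.04 against 106 ± 40.6 CPM, Cd300lf 35.01 ± 24.7 against 324 ± 71.2 CPM and Cd300a 93.96 ± 9.91 against 329 ± 73.9 CPM, while Cd300c was higher (7.18 ± 3.47 against 1.14 ± 0.792 CPM). Among sialic acid receptors, Siglece had 3.75 ± 2.58 against 49.96 ± 3.904 CPM, Siglecg 40.2 ± 13.9 against 158 ± 26.1 CPM and Cd22, best known from B cells, 9.799, 17.6 and 8.48 CPM in the CD8+ libraries and 184, 256 and 193 CPM in the CD4+ libraries, all lower. Cr2 and Cd79b, the B cell markers given above, moved the same way as Cd22, and their part in it was not tested. Siglech, a receptor of plasmacytoid DCs, had 35.1, 13.3 and 3.84 CPM in the CD8+ libraries and 5.87, 0.8396 and 0.3298 CPM in the CD4+ libraries and was called higher, but not without CD8+ replicate 1 (adjusted p = 0.166), the library in which it was highest, nor without CD4+ replicate 2 (adjusted p = 0.102) or 3 (adjusted p = 0.0697). The C-type lectin list held 7 genes higher and 14 lower of 24. Its shared signalling chains were lower, with Fcer1g at 87.2 ± 29.4 against 359.5 ± 52.1 CPM, Tyrobp at 394 ± 111 against 1499 ± 378 CPM, the kinase Syk at 146 ± 35.8 against 489.7 ± 84.9 CPM and the adaptor Card9 at 4.904 ± 1.68 against 13.8 ± 3.36 CPM. Clec7a, the receptor for fungal glucan known as Dectin-1, had 22.7 ± 5.16 against 49.6 ± 16.9 CPM, and Clec1a, a receptor for fungal melanin, went the other way at 23.3 ± 2.84 against 2.11 ± 0.388 CPM.

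Fc receptors and complement genes were lower in CD8+ DCs in 11 of 14 cases and higher in 2. C3, the central complement protein, had 2.597, 0 and 0.678 CPM in the CD8+ libraries and 33.5, 31.1 and 28.7 CPM in the CD4+ libraries (log2 fold change -4.78 ± 0.48, adjusted p = 6.95e-07), properdin, encoded by Cfp, 341, 282 and 197 CPM in the CD8+ libraries and 728, 916 and 979 CPM in the CD4+ libraries (log2 fold change -1.68 ± 0.30, adjusted p = 0.000341), and Fcgr4 4.34 ± 2.11 against 20.02 ± 1.81 CPM. Fcgrt, the neonatal Fc receptor, was higher at 93.5 ± 29.3 against 38.9 ± 17.3 CPM. Cfb fell too, but 79.5% of its exon bases overlap another gene. The C1q chains C1qb and C1qc had 23.96 ± 8.69 against 69.7 ± 26.6 CPM and 20.5 ± 7.89 against 54.7 ± 14.6 CPM. Without CD4+ replicate 3 the number lower was 7. Of receptors for dead cells, 5 of 11 were lower and 2 higher, and none of 3 bridging proteins was called. Cd36, a scavenger receptor, had 336, 532 and 530.5 CPM in the CD8+ libraries and 7.14, 21.8 and 9.73 CPM in the CD4+ libraries (log2 fold change 5.19 ± 0.36, adjusted p = 9.24e-09), and Scarb1, a receptor for lipoproteins, 201 ± 15.1 against 81.2 ± 16.4 CPM, both higher. Axl and Mertk, TAM kinases that bind dead cells through bridging proteins, had 24.4 ± 7.33 against 74.01 ± 12.9 CPM and 5.32 ± 2.197 against 17.5 ± 2.15 CPM, and Lrp1 13.2 ± 3.69 against 49.8 ± 6.91 CPM, all lower. Beside these groups stand the splenic macrophage markers, 8 of 12 of which are also members of the lists described here. Of the others, Vcam1 had 145, 114 and 102 CPM against 312, 331 and 309 CPM, Hmox1 118, 97.2 and 132 CPM against 155, 375 and 276 CPM, Cd5l 6.02, 3.46 and 4.63 CPM against 15.1, 11.6 and 18.5 CPM and Spic 13.2, 8.64 and 15.3 CPM against 26.8, 17.3 and 23.1 CPM, and all but Spic were called lower in CD8+ DCs. The defining red pulp factor Spic was thus read in every library, and the part of such cells in these results was not tested.

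Chemokine receptors were called higher in 6 of 14 cases and lower in 4, against 14.9% and 16.3% over all genes. Receptors for inflammatory chemokines were mostly on the CD8+ side, with 5 of 9 higher and 1 lower. Ccr2 had 48.2, 62.4 and 60.2 CPM in the CD8+ libraries and 19.6, 13.4 and 16.98 CPM in the CD4+ libraries (log2 fold change 1.76 ± 0.27, adjusted p = 6.09e-05), and Cxcr3, a receptor for interferon-induced chemokines, had 38.1, 40.9 and 59.2 CPM in the CD8+ libraries and 2.17, 5.88 and 3.79 CPM in the CD4+ libraries (log2 fold change 3.56 ± 0.51, adjusted p = 3.86e-05). Ccr1 (9.04 ± 1.58 against 0.335 ± 0.2902 CPM) rose too. Of 5 tested receptors for homeostatic chemokines, 3 were lower and 1 was higher. The higher one was Ccr9 (61.8 ± 11.8 against 10.7 ± 5.29 CPM), also a marker of plasmacytoid DCs. Ccr6, the receptor for CCL20, ran the opposite way at 0.945, 0.798 and 0.113 CPM in the CD8+ libraries and 31.5, 25.4 and 21.1 CPM in the CD4+ libraries (log2 fold change -5.38 ± 0.48, adjusted p = 1.39e-07). Ccr7, which guides DCs into T cell zones, was called lower (89.8 ± 30.9 against 164 ± 64.7 CPM), but not without CD8+ replicate 1 or 2 or CD4+ replicate 2 or 3 (adjusted p up to 0.132), and in the fits without CD4+ replicate 2 or 3, and in that of the 6 libraries alone, the number of receptors lower was 2. Of the chemokines, Cxcl9 had 75.3, 52.5 and 124 CPM in the CD8+ libraries and 6.12, 1.51 and 5.94 CPM in the CD4+ libraries (log2 fold change 4.19 ± 0.45, adjusted p = 1.51e-06) and Ccl22 9.996 ± 9.91 against 1.47 ± 0.917 CPM, both higher, and Ccl3 (7.36 ± 1.76 against 54.7 ± 20.8 CPM), Ccl5 (42.7 ± 27.1 against 156 ± 92.2 CPM) and Ccl9 (2.73 ± 1.59 against 29.5 ± 6.56 CPM) were lower. The genes that place cells along oxysterol gradients showed receptor and enzyme on opposite sides. Gpr183, the receptor EBI2, had 66.7, 29.8 and 21.8 CPM in the CD8+ libraries and 122, 118 and 111 CPM in the CD4+ libraries (log2 fold change -1.57 ± 0.28, adjusted p = 0.000321), lower in CD8+ DCs, and Cyp7b1, an enzyme that makes its ligand, had 11.1, 10.9 and 3.17 CPM in the CD8+ libraries and 0, 0.336 and 0 CPM in the CD4+ libraries (a ratio of 83.3 with a counting interval of 23.1 to 688), higher. Hsd3b7, which degrades the ligand, was higher at 48.03 ± 6.98 against 10.2 ± 5.16 CPM, with 57.2% of its exon bases shared with another gene.

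Inflammatory and TNF family cytokine genes were lower in CD8+ DCs in 7 of 10 cases. Il1b had 52.2, 52.5 and 78.6 CPM in the CD8+ libraries and 179, 286 and 399 CPM in the CD4+ libraries (log2 fold change -2.24 ± 0.31, adjusted p = 2.36e-05), Il1rn, the antagonist of the same receptor, 0.233 ± 0.295 against 10.2 ± 2.14 CPM, and Ltb, lymphotoxin beta, 40.02 ± 26.8 against 201 ± 58.2 CPM. Il12b, the p40 chain of interleukins 12 and 23, was higher, with 19.8, 33.1 and 82.3 CPM in the CD8+ libraries and 6.25, 12.6 and 13.2 CPM in the CD4+ libraries (log2 fold change 2.09 ± 0.44, adjusted p = 0.00164). Tnf, at 10.4 ± 5.702 against 13.3 ± 7.16 CPM, was not called. Without a CD4+ library the count of 7 fell to 2 or 3, since up to 4 low genes then fell below the CPM filter and others lost the call. Costimulatory and checkpoint genes were lower in 8 of 15 cases and higher in 2, against 16.3% and 14.9% over all genes. Cd86, a ligand of CD28, had 214, 215 and 329.6 CPM in the CD8+ libraries and 90.3, 63.8 and 109 CPM in the CD4+ libraries (log2 fold change 1.53 ± 0.25, adjusted p = 0.000134), whereas Cd80, its relative, had 14.2, 15.3 and 13.1 CPM in the CD8+ libraries and 32.5, 48.4 and 31 CPM in the CD4+ libraries (log2 fold change -1.39 ± 0.296, adjusted p = 0.00152), so that the B7 pair divided between the lineages. The ligands of PD-1 were both on the CD4+ side, Cd274, encoding PD-L1, with 47.5, 35.9 and 38.8 CPM in the CD8+ libraries and 189, 288 and 247 CPM in the CD4+ libraries (log2 fold change -2.57 ± 0.21, adjusted p = 5.46e-08) and Pdcd1lg2, encoding PD-L2, with 0.472, 2.26 and 2.04 CPM in the CD8+ libraries and 25.4, 31.4 and 21.9 CPM in the CD4+ libraries (log2 fold change -4.04 ± 0.36, adjusted p = 1.46e-07). Cd40 had 85.4 ± 18.9 against 187 ± 55.2 CPM and Tnfsf14, the cytokine LIGHT, 1.01 ± 0.648 against 14.3 ± 0.463 CPM. Btla, an inhibitory receptor, was higher at 528 ± 57.6 against 83.1 ± 16.4 CPM.

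Growth factor and cytokine receptors were called lower in 7 of 23 cases and higher in 1, against 16.3% and 14.9% over all genes. The receptor that all conventional DCs need, Flt3, had 1085 ± 205 against 961 ± 228 CPM (adjusted p = 0.668), and the granulocyte-macrophage factor receptor Csf2rb had 138 ± 31.1 against 168 ± 41.1 CPM (adjusted p = 0.417). Csf1r, the macrophage growth factor receptor, had 136, 89.7 and 60.5 CPM in the CD8+ libraries and 404, 588 and 539.9 CPM in the CD4+ libraries (log2 fold change -2.42 ± 0.28, adjusted p = 3.21e-06), and Csf3r, the granulocyte factor receptor, had 1.25 ± 1.08 against 22.6 ± 8.701 CPM. Il2rg, the common gamma chain, had 274, 221 and 104 CPM in the CD8+ libraries and 982, 1529 and 811 CPM in the CD4+ libraries (log2 fold change -2.47 ± 0.31, adjusted p = 9.18e-06), with 30.5% of its exon bases shared with another gene. Il6ra had 76.4 ± 14.6 against 211 ± 26.9 CPM and the TNF receptor Tnfrsf1b 53.1 ± 13.2 against 192 ± 40.6 CPM. The one gene called higher, Ifngr1, at 614 ± 37.4 against 429 ± 41.7 CPM, lost the call whichever library was left out (adjusted p 0.0517 to 0.113).

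The Notch pathway divided by component. It acts between neighbouring cells, a ligand on one cell releasing the cut receptor of the other into the nucleus. Of 20 genes tested, 5 were higher in CD8+ DCs and 6 lower, against 14.9% and 16.3% over all genes. Among receptors, Notch4 had 109, 89.6 and 142 CPM in the CD8+ libraries and 7.398, 1.68 and 7.09 CPM in the CD4+ libraries (log2 fold change 4.38 ± 0.56, adjusted p = 9.96e-06), Notch1 9.84 ± 1.27 against 2.89 ± 1.09 CPM and Notch3 4.69 ± 4.52 against 0.431 ± 0.278 CPM, all higher, while Notch2 was read at 74.4, 71.5 and 50.6 CPM in the CD8+ libraries and 66.97, 79.8 and 55.7 CPM in the CD4+ libraries and was not called. The ligands were split. Jag2 had 11.7, 12.2 and 26 CPM in the CD8+ libraries and 0, 0 and 0 CPM in the CD4+ libraries, and Dll4 had 0, 0 and 0 CPM in the CD8+ libraries and 2.42, 10.6 and 7.92 CPM in the CD4+ libraries, so that each was read in one subtype alone (at least 57.7-fold lower in CD8+ DCs for Dll4), and Jag1 had 8.96 ± 5.91 against 42.5 ± 3.91 CPM, lower in CD8+ DCs. The groups of these 3 ligands did not overlap. Of the modifiers, the fringe enzyme Lfng had 31.7 ± 7.304 against 80.8 ± 19.2 CPM and the protease Adam10 72.6 ± 2.06 against 152 ± 38.1 CPM, both lower. The target Dtx1, an E3 ligase, had 25.3, 0.798 and 1.13 CPM in the CD8+ libraries and 319, 257 and 219 CPM in the CD4+ libraries (log2 fold change -4.86 ± 0.77, adjusted p = 0.0001), a 29.2-fold difference, its paralogue Dtx4 was higher at 22.6 ± 2.28 against 6.58 ± 1.68 CPM, and the target Hes1 was at 17.3 ± 6.47 against 18.7 ± 4.87 CPM and not called. In the fits without a CD8+ library the number higher was 3, because Jag2 and Notch3 then stayed below the CPM filter.

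Adhesion and guidance genes were found on both sides. Of 18 integrin genes, 7 were higher and 6 lower (against 14.9% and 16.3% over all genes), counting Itgam, which the sort fixed. The collagen-binding chain Itga1 had 21.96, 27.1 and 23.2 CPM in the CD8+ libraries and 0, 0.336 and 0 CPM in the CD4+ libraries, and Itga8, which binds nephronectin, 35.3, 48.9 and 67.9 CPM in the CD8+ libraries and 1.66, 2.02 and 1.32 CPM in the CD4+ libraries (log2 fold change 4.92 ± 0.44, adjusted p = 1.49e-07). Itgad, a partner of the beta 2 chain, had 18.1 ± 4.38 against 51.9 ± 16.5 CPM and Itga9 3.07 ± 1.54 against 14.7 ± 5.43 CPM, both lower. The 7 higher became 4 without CD8+ replicate 3. Of the adhesion receptors of the GPCR class, Adgre1, which encodes F4/80, had 46.8, 48.1 and 16.5 CPM in the CD8+ libraries and 531, 863 and 573 CPM in the CD4+ libraries (log2 fold change -4.14 ± 0.405, adjusted p = 4.35e-07), and Adgre4, a relative of it, and the latrophilin Adgrl3 had 14.7 ± 6.01 against 106 ± 38.02 CPM and 35.9 ± 5.07 against 171 ± 18.2 CPM, all lower, as was the cadherin Cdh17 (1.902 ± 0.793 against 34.98 ± 10.7 CPM). The catenin Ctnnd1, which holds cadherins at the membrane, was higher at 37.6 ± 5.53 against 11.7 ± 0.9501 CPM. Semaphorin receptors were lower in 5 of 8 cases, with Plxnc1 at 179.5 ± 12.5 against 658 ± 63.1 CPM, Plxnd1 at 16.6 ± 4.75 against 99.8 ± 15.3 CPM and Plxnb2 at 151 ± 61.2 against 497 ± 194 CPM. Among the semaphorins, Sema4a, a costimulator of T cells, had 150.2, 182 and 303 CPM in the CD8+ libraries and 12.4, 18.8 and 27.5 CPM in the CD4+ libraries (log2 fold change 3.44 ± 0.29, adjusted p = 7.87e-08) and Sema4f 30.4 ± 15.7 against 2.45 ± 2.94 CPM, both higher, while Sema4d had 137 ± 27.01 against 377 ± 62.05 CPM, lower. Serpins were higher in 4 of 7 cases and lower in 2. Serpinb6b had 114, 71.9 and 181 CPM in the CD8+ libraries and 6.505, 10.8 and 16.8 CPM in the CD4+ libraries (log2 fold change 3.44 ± 0.35, adjusted p = 1.5e-06), Serpinb8 42.4 ± 5.39 against 0.9105 ± 1.21 CPM and Serpinb9, which blocks granzyme B, 86.4 ± 59.3 against 16.97 ± 13.01 CPM. The metalloproteinases ran the other way in Mmp9, Mmp12 and Mmp14, given above, and in the DC protease Adamdec1 (6.05 ± 4.16 against 39.04 ± 13.1 CPM), but Mmp19 (3.86 ± 2.15 against 0.615 ± 0.195 CPM), Adam8 (388 ± 111 against 179 ± 51.1 CPM) and Adam19 (560.4 ± 40.4 against 275 ± 75.7 CPM) were higher.

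Nuclear-encoded genes of the respiratory chain were called higher in CD8+ DCs in 31 of 75 cases and lower in 4 (median log2 fold change 0.57). Glycolysis and pentose phosphate genes were called higher in 10 and lower in 3 of 24 cases. Over all genes the shares were 14.9% higher and 16.3% lower, so that in both lists the share called lower was below that over all genes. Uqcrb, a subunit of complex III, had 45.6, 48.9 and 79.1 CPM in the CD8+ libraries and 19.3, 8.899 and 20.8 CPM in the CD4+ libraries (log2 fold change 1.82 ± 0.29, adjusted p = 0.000124), Cox6a1 of complex IV 122 ± 37.6 against 41.7 ± 16.8 CPM and Atp5k of the ATP synthase 37.5 ± 2.58 against 16.4 ± 3.04 CPM. The 4 genes lower were Cox6b1 (208 ± 13.3 against 418 ± 127 CPM), Uqcrh (226 ± 27.2 against 477 ± 147 CPM) and the complex I genes Ndufa11 (57.1 ± 5.65 against 84.8 ± 17.2 CPM) and Ndufa10 (156 ± 40.3 against 246 ± 74.7 CPM), of which Ndufa11 and Ndufa10 lost the call without CD8+ replicate 3 or CD4+ replicate 2, and Ndufa10 also without CD8+ replicate 1 (adjusted p up to 0.101 and 0.191). The differences moved with the length of the counted exons. Ordered into 6 bins by length, the median log2 fold change of all genes fell from 0.24 in the shortest (57 to 1524 bases) to -0.16 in the longest (6496 to 116824 bases), and the median exon length was 1363 bases in the respiratory chain list against 3436 bases over all genes. With a correction for exon length, an alternative chosen after seeing the data, 24 respiratory chain genes were higher and 7 lower (median 0.38). A fit of the 6 splenic DC libraries alone called 19 higher and 2 lower, the block 38 higher and 7 lower, and 12 of the 31 lost the call without at least 1 library. Of the reads assigned to genes or lying in no exon, those in no exon took 17.6% to 23.7% in the CD8+ libraries and 23.05% to 28.4% in the CD4+ libraries, less in the CD8+ library of each replicate number. The part of this share and of exon length in the group was not tested further. In the same correction 9 of the ER folding genes were higher and none lower, 8 MHC class I genes higher and 3 lower, 3 interferon-stimulated genes higher and 23 lower, and 13 NF-kB genes lower.

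In glycolysis 2 enzymes of the early steps stood out. Hk3, a hexokinase of myeloid cells, had 93.4, 90.7 and 182 CPM in the CD8+ libraries and 8.55, 2.52 and 9.07 CPM in the CD4+ libraries (log2 fold change 4.17 ± 0.39, adjusted p = 2.44e-07), and Pfkp, a phosphofructokinase, had 136, 119.6 and 225 CPM in the CD8+ libraries and 28.2, 16.1 and 21.8 CPM in the CD4+ libraries (log2 fold change 2.86 ± 0.27, adjusted p = 2.91e-07). Both had every CD8+ library above every CD4+ library. The isoforms Hk1, at 36.7 ± 1.25 against 41.2 ± 11.5 CPM, and Pfkl, at 58.9 ± 11.1 against 44.8 ± 7.94 CPM, were not called. Ldha, lactate dehydrogenase, had 922 ± 123 against 451 ± 155 CPM, higher, and the glucose transporter Slc2a3 27.9 ± 22.02 against 123 ± 31.8 CPM, lower. Without CD8+ replicate 3 or CD4+ replicate 2, and in the fit of the 6 libraries alone, 6 genes were higher, and with the block 5 were lower. Cholesterol genes gave 4 higher and 3 lower of 31, smaller shares than the 14.9% and 16.3% over all genes, and the 3 lower each lost the call without at least 1 library. Fdps, an enzyme of the mevalonate pathway, had 64.7 ± 16.7 against 24.5 ± 8.38 CPM and was higher.

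Cell cycle genes gave 2 higher and 3 lower of 48, and none of 20 mitosis genes was called, against 31.1% over all genes. Mki67 had 198 ± 48.2 against 206 ± 36.4 CPM (adjusted p = 0.863), Top2a 192 ± 24.4 against 266 ± 58.6 CPM (adjusted p = 0.234) and Cdk1 80.01 ± 20.8 against 74.8 ± 7.02 CPM (adjusted p = 0.865). A p above the threshold does not show equal levels. Of the D cyclins, which respond to growth signals, 2 were lower in CD8+ DCs, Ccnd2 with 12.9, 5.18 and 3.504 CPM in the CD8+ libraries and 84.7, 62.1 and 85.2 CPM in the CD4+ libraries (log2 fold change -3.42 ± 0.42, adjusted p = 6.66e-06) and Ccnd1 with 76.9, 61.8 and 64.7 CPM in the CD8+ libraries and 161, 182 and 188 CPM in the CD4+ libraries (log2 fold change -1.38 ± 0.21, adjusted p = 5.46e-05), while Ccnd3, at 288 ± 77.3 against 214 ± 83.6 CPM, was not called. The 2 cell cycle genes called higher both lost the call without at least 1 library. Genes of the BCL2 family were higher in 5 of 13 cases and lower in 2, against 14.9% and 16.3% over all genes. Bcl2l11, which encodes the death factor BIM, had 60.7 ± 10.99 against 27.2 ± 8.52 CPM and Bid 90.8 ± 17.1 against 40.5 ± 8.32 CPM, both higher, and the survival factors Mcl1 (574 ± 95.8 against 724 ± 225 CPM), Bcl2 (14.5 ± 4.16 against 16.6 ± 1.84 CPM) and Bcl2l1 (8.197 ± 4.57 against 8.17 ± 4.49 CPM) were not called. The 5 became 2 without CD8+ replicate 3 and 3 without CD8+ replicate 1 or 2, with the exon length correction or in the fit of 6 libraries.

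Receptors for nucleotides and adenosine were called higher in 3 of 13 cases and lower in 4, against 14.9% and 16.3% over all genes. P2ry14, the receptor for UDP-glucose, had 150.5, 158 and 151 CPM in the CD8+ libraries and 2.93, 0.672 and 3.46 CPM in the CD4+ libraries (log2 fold change 5.99 ± 0.44, adjusted p = 1.63e-08), a 65.1-fold difference, P2ry6 60.3 ± 12.9 against 21.6 ± 7.31 CPM and Adora3 8.28 ± 0.9604 against 0.404 ± 0.0816 CPM. Adora2a, an adenosine receptor gene, was lower, at 9.55 ± 0.809 against 38.4 ± 15.2 CPM, as was P2ry13 (3.78 ± 1.45 against 14.2 ± 6.26 CPM). Of 6 tested genes for tryptophan and retinoic acid handling, 3 were lower and none higher. Il4i1, an enzyme that oxidizes amino acids and dampens T cells, had 90.8 ± 4.77 against 249 ± 55.4 CPM, and Rarg, a retinoic acid receptor, 5.14 ± 1.45 against 25.5 ± 20.8 CPM. The other 4 of the 10 listed genes were below the CPM filter.

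To see where the splenic lineage difference was its own, it was compared with that of the most alike pair, LN CD103+ and CD11b+ DCs. The difference between the organs passed an adjusted p of 0.05 at 1661 of 12670 genes (13.1%), 874 with a larger and 787 with a smaller value in spleen. LN and splenic DCs came from different cohorts of mice and LN DCs were gated on high MHC II, so that organ, cohort and gate cannot be told apart. In LN, 702 genes (5.54%) were higher and 984 (7.77%) lower in CD103+ DCs. DC1 signature genes differed more in spleen, with 22 of 26 passing the test of the difference, 21 of them toward a larger value in spleen, and medians of 4.95 in spleen and 1.05 in LN. As these genes were chosen in part on splenic DCs, and LN cells were sorted on CD103, the product of the listed Itgae, the larger values in spleen are no independent evidence. Rab7b, for example, had 54.7 ± 42.2 and 33.4 ± 5.23 CPM in LN CD103+ and CD11b+ DCs, a difference between organs of log2 7.28 ± 0.59, adjusted p = 3.47e-07, and Ifi205, an interferon-inducible DNA-binding protein, had 855 against 15.4 CPM in spleen and 132 ± 20.2 and 58.6 ± 22.4 CPM in LN (log2 4.62 ± 0.34, adjusted p = 1.04e-07). Clec4b2 was near 0 in both LN subtypes (0.0572 ± 0.099 and 0.123 ± 0.112 CPM). Mab21l3 was read in both, with 177 ± 31.1 and 11.1 ± 3.71 CPM. DC2 signature genes differed less in spleen, with medians of -2.42 against -4.68 and 14 of 23 passing, 10 of them toward a higher value in spleen, with the same limit.

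Interferon-stimulated, NF-kB and folding genes also differed between the organs. Of 32 interferon-stimulated genes, 21 passed the test of the difference, 19 toward a lower value in spleen, and the median was -1.35 in spleen and -0.07 in LN, where 3 were higher and 6 lower. Oasl2 had 102 ± 26.9 and 109 ± 22.9 CPM in LN CD103+ and CD11b+ DCs, a difference between organs of log2 -3.68 ± 0.37, adjusted p = 4.1e-06, and Ifit1 had 69.5 ± 16.8 and 48.5 ± 12.4 CPM, a difference of log2 -4.66 ± 0.52, adjusted p = 1.21e-05. Of 16 NF-kB genes, 10 passed, all lower in spleen, and none was called lower in LN. Relb had 2957 ± 165 and 2491 ± 323 CPM in LN (log2 -2.78 ± 0.31, adjusted p = 1.33e-05). Of 20 folding genes, 10 passed, all higher in spleen, against 1 higher and 1 lower in LN, and Hsp90b1 had 109.5 ± 11.2 and 139 ± 27.7 CPM (log2 2.45 ± 0.28, adjusted p = 1.34e-05). The PD-1 ligands also differed between organs, with Cd274 at 382 ± 71.2 and 351 ± 43.4 CPM (log2 -2.69 ± 0.28, adjusted p = 6.64e-06) and Pdcd1lg2 at 68.7 ± 14.2 and 24.5 ± 4.104 CPM (log2 -5.52 ± 0.46, adjusted p = 4.46e-07) in LN. Ccr2 turned its direction, with 10.3 ± 4.28 and 128 ± 28.3 CPM in LN (log2 5.42 ± 0.39, adjusted p = 1.04e-07), lower in CD103+ DCs. MHC class II genes went the other way, since 9 of 13 were lower in LN CD103+ DCs and 8 passed the test of the difference, 7 of them toward a higher value in spleen. In contrast, MHC class I loading was called higher in both organs, 8 and 7 of 17, with 3 genes passing the test of the difference. Fc receptor and complement genes were lower in both, 11 of 14 in each organ, but 7 of the 14 passed, all toward a higher value in spleen. Their medians were -1.74 in spleen and -3.46 in LN, so that they differed less in spleen. Respiratory chain genes were called higher in none and lower in 1 of 75 cases in LN, and 6 of the 75 passed the test of the difference. Over all genes tested, 13.1% passed it.

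**Figure D5:**
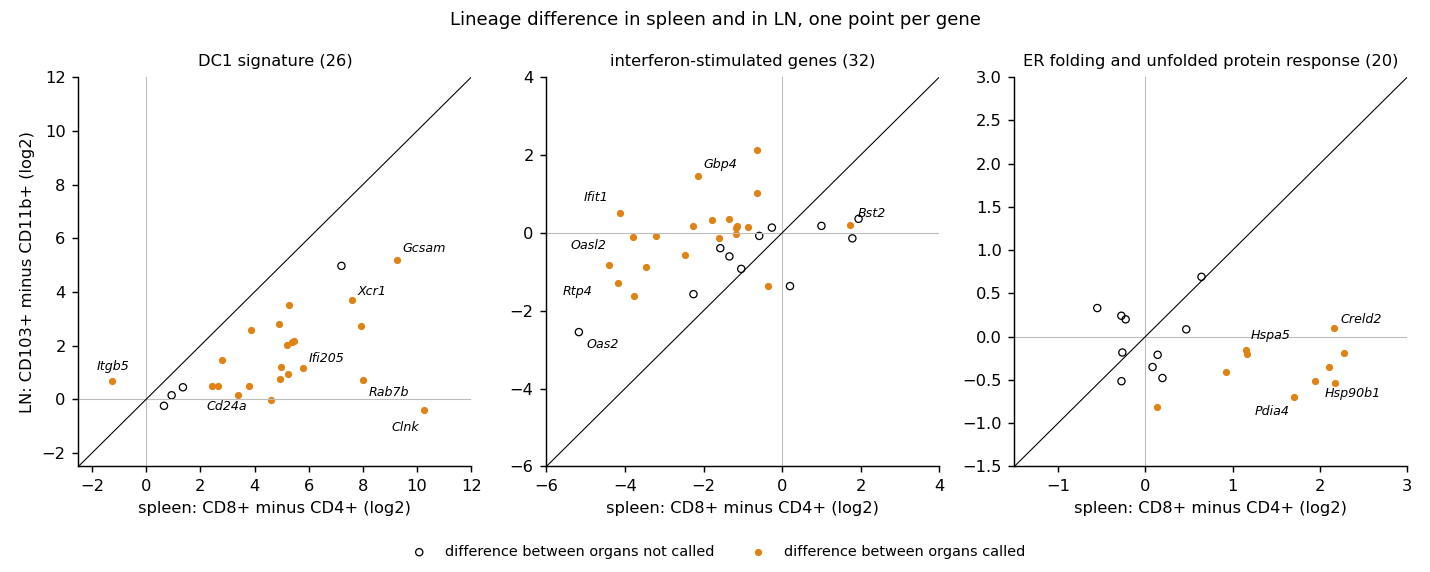
Fitted log2 fold change of each gene in spleen (CD8+ minus CD4+ DCs, x axis) and in LN (CD103+ minus CD11b+ DCs, y axis) for 3 gene lists; filled orange points passed the test of the difference between organs, open points did not, and the diagonal marks equal differences. All DC1 signature genes but Itgb5 lie below the diagonal, most interferon-stimulated genes lie above it to the left, and the filled points among folding genes lie below it.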

How the data were processed

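RNA was sequenced from 15 pooled libraries of sorted murine myeloid cells, 3 in each of 5 subtypes. Per the labels and the methods of the study, polyadenylated RNA was amplified with the SMARTer kit, adapter-ligated and sequenced on an Ion Torrent instrument, reads below 30 bases were dropped, and the rest were aligned to mm10 with STAR 2.4.0j and counted on Ensembl genes by the authors with featureCounts (Subread 1.5.2, Ensembl 75), without strand, from uniquely mapped reads. The deposited raw counts per gene were used for every test. The TPM values deposited by the authors (counts per exon length, scaled to a common total) served one alternative, and the deposited exon lengths gave overlaps and the length correction. There were no molecular identifiers, so intervals and floors cover counting error only. A further 18 columns of single sequencing runs were not used. Symbols were paired with 37607 of the 38924 gene identifiers (96.6%).

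The 12670 genes above 1 CPM in 3 or more of the 6 splenic DC libraries were tested with the quasi-likelihood test of edgeR 4.0.16 in R 4.3.3, with TMM factors (0.866 to 1.11) and 1 model of 5 groups (10 residual degrees of freedom, common dispersion 0.062). Benjamini-Hochberg adjustment ran over all genes tested, and 0.05 was the threshold. With 3 counts or fewer in a group, ratios of means are bounds against 3 counts or carry exact Poisson intervals. The test was first checked on simulated counts. Alternatives were other size factors and filters, a fit of the 6 libraries alone, limma 3.58.1 on log2(TPM + 1), DESeq2 1.42.0, a replicate block, a required log2 fold change of 1, leaving out each library, and the exon length correction, added after seeing the data.

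The labels number the replicates 1 to 3 without saying what a number shares. Same-numbered CD8+ and CD4+ libraries deviated from their group means together (correlations 0.173, 0.409 and 0.444, against -0.373 to -0.002 for other pairs). On the evidence of the data alone, the numbers may thus pair the samples. The main tests did not use this pairing, which entered only the alternative with a replicate block. The labels list each library as a separate sample and do not say whether CD8+ and CD4+ libraries came from the same pools of mice. The p-values measure the spread between the libraries of a subtype.

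The genes named are the 12 with the largest fitted difference in each direction among called, separated genes with a mean of at least 10 CPM, up to 4 members with the smallest p per list and direction, and members a sentence turns on, some of which were chosen after their values were seen. Not every member that the second part selects is given, and some given in its place have a larger p. The gene lists and the comparison itself were chosen with earlier results of these data known. Promoter sequences came from RefSeq (GRCm38.p6).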

Additional observations from a re-analysis of the deposited data

Results flagged for a closer look

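The splenic and the LN lineage difference were set against each other in the same model. The 9 genes given here were reported above and kept because they passed the test of the difference (spleen minus LN, on the log2 scale, adjusted p under 0.05). That all of them passed is therefore no result. Toward a larger value in spleen stood Rab7b (log2 7.28 ± 0.59, adjusted p = 3.47e-07), Ifi205 (log2 4.62 ± 0.34, adjusted p = 1.04e-07), the chemokine receptor Ccr2 (log2 5.42 ± 0.39, adjusted p = 1.04e-07) and the ER chaperone Hsp90b1 (log2 2.45 ± 0.28, adjusted p = 1.34e-05). Toward a smaller value in spleen stood Oasl2 (log2 -3.68 ± 0.37, adjusted p = 4.1e-06), Ifit1 (log2 -4.66 ± 0.52, adjusted p = 1.21e-05), Relb (log2 -2.78 ± 0.31, adjusted p = 1.33e-05), Cd274 (log2 -2.69 ± 0.28, adjusted p = 6.64e-06) and Pdcd1lg2 (log2 -5.52 ± 0.46, adjusted p = 4.46e-07). Among all genes tested, 13.1% passed the same test, a share with which genes kept for passing it cannot be compared. Organ, cohort and gate cannot be told apart in these values.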

How the results depend on the processing

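The 3943 genes called between the splenic subtypes became 2600 in a fit of the 6 libraries alone, which estimates the spread from fewer samples, and 2531 with a required log2 fold change of 1. The other settings gave 3890 (limma on log2(TPM + 1)) to 4637 (replicate block), with 4302 in DESeq2. Leaving out each library in turn gave 2665 to 3924, with 2840 without CD4+ replicate 2. None of these genes tested again reversed its direction in any of these fits, and 2135 of the 3657 tested in every fit that left out a library were called in each. The 1661 genes that differed between organs became 1143 to 1836 without a library and 1261 to 2226 under the other settings. Of these 1661, 5 changed sign under limma on log2(TPM + 1), 1 of them while called, and 1 changed sign without LN CD11b+ replicate 1.

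With the replicate number as a block, 4637 genes were called between the splenic subtypes and 2226 between organs, and 3920 of the 3943 genes were called again. Of the genes named above, the block added calls for H2-K1, H2-D1 and Havcr2 and changed no other call. The exon length correction, chosen after seeing the data, called 3933 genes, of which 3606 were shared with the 3943. Of 1120 list counts compared with their values under the alternatives, 1016 were within 1.5 times the count reported. Libraries of 5492796 to 8311777 counts limit what can be said of genes near 1 CPM, and the cause of the changes across settings was not tested.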
